A study of Homo sapiens with 4 samples.

Results

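SAA1 and SAA2, which encode the acute-phase serum amyloid A proteins, and 5 genes of the complement system, C1R, C1S, C3, CFB and SERPING1, are 7 of the 33538 genes given in the count matrices. They were taken by gene symbol, with SAA1 already known to be lower in the shAPC libraries at both days, in order to ask whether the complement genes follow it. The shAPC/shScr ratios are therefore a description of genes that were chosen on these libraries, and no test was run on them.

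HCEC 1CT, a line from human colon epithelium made immortal by added TERT and CDK4, was transduced with an shRNA against APC (shAPC) or with a scrambled shRNA (shScr), and single cells were sequenced with the 10x Genomics 3′ assay at day 3 and day 7 after transduction. The 4 groups, shScr and shAPC at each day, share the line, a medium with EGF, hydrocortisone, insulin, selenite, transferrin and a little serum, and puromycin selection. Each group is 1 library of 1 line, so there are no replicates and the spread between cultures is unknown. The methods name a single APC shRNA, the virus is retroviral in the labels and lentiviral in the methods, and the kit is v2 in the labels and V3 in the methods. The file headers name Cell Ranger 3.0.2 in shScr and 3.0.0 in shAPC, at both days alike, so the counting software and the shRNA cannot be told apart.

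Serum amyloid A is made by the liver, and also by the gut epithelium, during inflammation, when interleukin-1, interleukin-6 and tumour necrosis factor act on its genes through NF-kB, STAT3 and C/EBP factors. Complement is a cascade of plasma proteins that marks cells and microbes. C1r and C1s are the proteases that start its classical pathway, the C1 inhibitor encoded by SERPING1 blocks them, C3 is the central protein on which all pathways meet, and factor B, from CFB, forms the C3-cleaving enzyme of the alternative pathway. Epithelial cells and fibroblasts can make several of these proteins themselves, and interferons are known inducers of C1R, C1S, CFB and SERPING1.

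UMIs (distinct RNA molecules per gene and cell) of all kept cells were added up within a library, and levels are in CPM, a gene's UMIs relative to all kept UMIs of that library. The kept cells numbered 788 to 2600 per library with 28451455 to 39797418 UMIs in all, and their median depth was 1330 UMIs in shScr day 7 against 21029.5 to 49685.5 in the other 3 libraries. APC, the targeted gene, stood at 16.1 CPM in shScr day 3, 5.52 in shAPC day 3, 19.1 in shScr day 7 and 6.61 in shAPC day 7, in the direction of the labels. The labelled colon epithelial identity is only in part visible: of 8 epithelial markers 5 to 7 had a UMI, KRT20 had none in any library and CDH1 none in 3 of 4, and the summed level was 25.0 to 49.3 CPM against 8779 to 11339.5 CPM for 6 mesenchymal markers. Markers of the usual complement and acute-phase sources were near the floor, with hepatocyte markers summing to 0.640 to 1.76 CPM, C1QA and TTR at 0 UMIs in all 4 libraries and PTPRC at 1 UMI in all. Of the 6 macrophage and leukocyte markers only CD68 was above 1 CPM. Kept cell barcodes were shared between libraries in 19 cases for the 2 day 3 libraries, 2.41% of the smaller one, and in 1 to 7 cases for the other pairs. Without all such barcodes SAA1 stood at 121.0, 43.4, 449.1 and 84.3 CPM in library order (shScr then shAPC at day 3, then the same at day 7).

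The regulatory DNA of 2 of the 7 genes, C1R and CFB, was given in the RefSeq promoter table, with 3 entries of 300 bases (250 before to 50 after a start site, GRCh38.p14). Only these 2 are shown because the other members had no entry there. The capitals mark the letters found by a search of both strands. The letters sought were GAAA followed after any 2 bases by GAAA (interferon response element) and TTCNNNGAA (STAT site). Also sought were GGG followed after any 5 bases by CC (NF-kB) and TTGCNNAA (C/EBP).
CFB, chr6:31945845-31946144, plus strand: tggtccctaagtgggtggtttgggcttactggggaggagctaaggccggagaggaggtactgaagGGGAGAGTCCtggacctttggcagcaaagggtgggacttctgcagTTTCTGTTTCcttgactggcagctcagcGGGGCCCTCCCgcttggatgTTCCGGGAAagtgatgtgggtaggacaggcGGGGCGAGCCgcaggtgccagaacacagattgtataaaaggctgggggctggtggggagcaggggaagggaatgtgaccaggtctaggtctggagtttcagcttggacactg
C1R entry 1, chr12:7092396-7092695, minus strand: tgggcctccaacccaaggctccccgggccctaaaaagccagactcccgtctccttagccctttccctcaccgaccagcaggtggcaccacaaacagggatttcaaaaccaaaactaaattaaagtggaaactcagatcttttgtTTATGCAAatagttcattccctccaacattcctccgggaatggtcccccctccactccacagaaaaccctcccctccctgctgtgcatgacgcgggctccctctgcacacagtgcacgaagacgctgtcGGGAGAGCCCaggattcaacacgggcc
C1R entry 2, chr12:7091844-7092143, minus strand: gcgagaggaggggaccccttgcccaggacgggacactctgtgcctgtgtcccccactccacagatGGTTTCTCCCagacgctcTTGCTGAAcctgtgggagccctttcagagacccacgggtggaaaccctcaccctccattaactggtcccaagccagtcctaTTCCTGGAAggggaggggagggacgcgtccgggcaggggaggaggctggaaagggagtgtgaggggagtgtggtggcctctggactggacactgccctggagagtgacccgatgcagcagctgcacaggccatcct

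The CFB window held the interferon element on its minus strand 140 bases before the start, a STAT site 92 bases before it and NF-kB letters from 185 to 62 bases before it, some of which overlap each other. C1R entry 1 held C/EBP letters 106 bases before the start and NF-kB letters after it, and entry 2 held a STAT site 86 bases before the start with NF-kB and C/EBP letters farther out. Among 35116 RefSeq promoter windows of the same length the interferon element occurred in 3.57%, the STAT site in 7.66%, the C/EBP letters in 10.5% and the NF-kB letters in 58.7%. These matches describe the letters only.

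On hg38 with GENCODE 44, SAA1 (chromosome 11, 18266260 to 18269977, plus strand) and SAA2 (chromosome 11, 18239223 to 18248668, minus strand) lie 17591 bp apart. C1R (chromosome 12, 7080214 to 7092540, minus strand) and C1S (chromosome 12, 6988259 to 7071032, plus strand) are neighbours with a gap of 9181 bp. C3 is on chromosome 19 (6677704 to 6730562, minus strand), CFB on chromosome 6 (31945650 to 31952086, plus strand) and SERPING1 on chromosome 11 (57597387 to 57619171, plus strand). All are protein-coding genes, with 4 exons in the canonical SAA1 transcript and 41 in that of C3.

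SAA1 was the most abundant of the 7 genes in 3 of the 4 libraries, and in shAPC day 3 its level and that of C1S were alike within their intervals. Its level was 120.6 CPM (117.2 to 124.1, exact Poisson 95% interval) in shScr day 3, 44.7 CPM (42.5 to 47.0) in shAPC day 3, 447.4 CPM (440.0 to 454.9) in shScr day 7 and 84.1 CPM (80.8 to 87.6) in shAPC day 7. All intervals here cover counting error only. The shScr library was the higher at both days, and within each shRNA day 7 was the higher. The shAPC level was 2.70-fold lower at day 3 (log2 -1.43, exact conditional binomial 95% interval -1.51 to -1.35) and 5.32-fold lower at day 7 (log2 -2.41, -2.47 to -2.35). The median log2 ratio of all genes of at least 20 CPM was 0.28 at day 3 (5175 genes) and -0.10 at day 7 (4573 genes), and SAA1 ranked 6 and 2 from the lowest. At least 2-fold lower in shAPC were 0.425% of those genes at day 3 and 1.77% at day 7.

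SAA2, the second acute-phase gene of the pair, had a lower level, also with shAPC below shScr at each day, but its shAPC day 7 level lay above that of shScr day 3, unlike SAA1. It reached 11.0 CPM in shScr day 3, 1.29 CPM in shAPC day 3, 73.6 CPM in shScr day 7 and 15.9 CPM in shAPC day 7. Its day 3 log2 ratio was -3.09 (-3.57 to -2.65), with 45 UMIs in shAPC, and its day 7 ratio -2.21 (-2.36 to -2.07). The shAPC day 7 level rests on few cells, since 1 cell held 240 of its 452 UMIs and another 79. Without the 10 cells richest in SAA2 in each library the day 7 ratio was -4.47 (-4.84 to -4.12) and the day 3 ratio -3.54 (-4.26 to -2.90), and without the deepest 5% of cells the day 7 ratio was -3.05. Without those 10 cells shAPC day 7 stood at 2.43 CPM, below the 7.01 CPM of shScr day 3, which is the order of SAA1. SAA2 made up 8.34% of the UMIs of the pair in shScr day 3, 2.80% in shAPC day 3, 14.1% in shScr day 7 and 15.9% in shAPC day 7. The canonical transcripts of the pair are 95.4% identical over 518 aligned bases, and 22.6% of the 90-base windows of SAA1 occur in SAA2, so the division of reads between them is uncertain. With both genes summed the log2 ratio was -1.52 at day 3. SAA4, the constitutive family member, had at most 6 UMIs in a library and the SAA2-SAA4 readthrough had 0.

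C1R and C1S, the protease genes of the classical pathway, were higher in shAPC at day 3. Over all kept cells they were lower at day 7, by a smaller amount. C1R stood at 8.77 CPM in shScr day 3, 22.7 CPM in shAPC day 3, 7.65 CPM in shScr day 7 and 5.69 CPM in shAPC day 7. The shAPC day 3 library thus stands above the other 3, which lie within 5.69 to 8.77 CPM. On the log2 scale the day 3 ratio of C1R was 1.37 (1.19 to 1.56) and the day 7 ratio -0.43 (-0.72 to -0.13). With the 10% mitochondrial limit the day 7 ratio of C1R was -0.10 and with all barcodes -0.081, and its day 3 ratio was 0.99 with TMM factors. For C1S the levels were 28.3 CPM in shScr day 3, 43.9 CPM in shAPC day 3, 25.0 CPM in shScr day 7 and 21.6 CPM in shAPC day 7, with log2 ratios of 0.63 (0.52 to 0.75) and -0.21 (-0.36 to -0.05). TMM factors gave 0.25 and DESeq2 size factors 0.27 for C1S at day 3. The day 7 difference of C1S is small, and its sign turned when the mitochondrial limit was raised to 10% (0.12) or all deposited barcodes were used (0.08). C1R made up 34.1% of the UMIs of the pair in shAPC day 3 and 20.8% to 23.7% in the other libraries.

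SERPING1, which encodes the inhibitor of both proteases, was the flattest of the 7 genes. Its level was 9.42 CPM in shScr day 3, 11.8 CPM in shAPC day 3, 8.13 CPM in shScr day 7 and 8.65 CPM in shAPC day 7. The 4 values lie between 8.13 and 11.8 CPM. The day 3 log2 ratio, 0.33 (0.12 to 0.53), lay close to the all-gene median, and it was -0.05 with TMM factors and -0.04 with DESeq2 size factors, so no direction is given. The day 7 value, 0.09, had an interval (-0.17 to 0.35) that holds 0.

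C3, the central component, was the complement gene with the largest day 7 difference among those of 20 CPM or more. It stood at 16.1 CPM in shScr day 3, 21.3 CPM in shAPC day 3, 24.7 CPM in shScr day 7 and 14.4 CPM in shAPC day 7. The library order differs from that of SAA1 at day 3, where shAPC was the higher, and is the same at day 7. In log2 terms C3 differed by 0.40 (0.25 to 0.56) at the earlier day and by -0.77 (-0.95 to -0.60) at the later one, when 4.24% of tested genes lay lower. With TMM factors the day 3 ratio was 0.02 and with DESeq2 size factors 0.04, so the day 3 difference of C3 is about that of the median gene.

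CFB, of the alternative pathway, was close to the limit of detection. There were 21 UMIs (0.528 CPM) in shScr day 3, 65 UMIs (1.86 CPM) in shAPC day 3, 11 UMIs (0.352 CPM) in shScr day 7 and 6 UMIs (0.211 CPM) in shAPC day 7. Only shAPC day 3 was above 1 CPM. The log2 difference was 1.82 (1.09 to 2.60) at the earlier day, and at day 7 the value of -0.74 (-2.46 to 0.82) cannot be separated from 0 at this depth. A readthrough gene annotated over CFB had 0 UMIs in all 4 libraries.

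**Figure D1:**
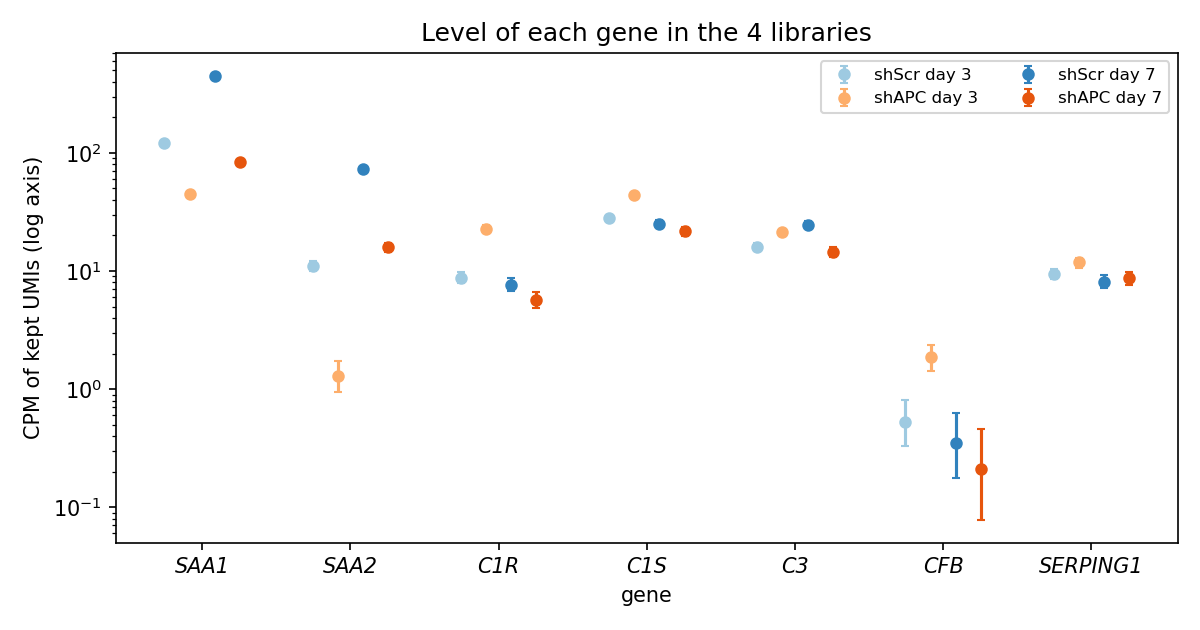
Level of the 7 genes in the 4 libraries, in CPM of kept UMIs on a log axis, with exact Poisson 95% intervals (1 library per group). SAA1 and SAA2 are lower in shAPC than in shScr at both days, whereas C1R, C1S, C3, CFB and SERPING1 are each highest in shAPC day 3, except C3, which is highest in shScr day 7 at 24.7 CPM.

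Counted together, 2 of the 7 genes (SAA1 and SAA2) had an interval below 0 at day 3, where 8.11% of the 15777 genes with at least 10 UMIs in the pair of libraries did. The other 5, the complement genes, had an interval above 0, where 55.5% of those genes did. At day 7, 5 of the 7 (SAA1, SAA2, C1R, C1S and C3) had an interval below 0 and none above it, against 25.1% and 22.6% of 15267 genes. None of the 5 complement genes was lower in shAPC at both days, and SAA1 and SAA2 were, where 5.67% of 15027 genes were. SAA1 was chosen for being lower at both days, so its place in these counts was given beforehand. The division of reads between SAA1 and SAA2 is uncertain, so SAA2 is not a separate case. The pattern of C1R, C1S and C3, higher at day 3 and lower at day 7 by these intervals, was met by 12.9% of the 15027 genes. With TMM factors the day 3 ratio was 0.02 for C3 and -0.05 for SERPING1. The day 3 calls of C3 and SERPING1 thus rest on the scaling by total UMIs. The median log2 ratio of the 5 complement genes, on the scale of log2(CPM + 1), was 0.62 at day 3 and -0.20 at day 7, or 0.34 and -0.10 once the all-gene median is subtracted. A level of 20 CPM in the pair was reached by 4 of the 7 genes at each day (SAA1, C1R, C1S and C3 at day 3, and SAA1, SAA2, C1S and C3 at day 7).

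**Figure D2:**
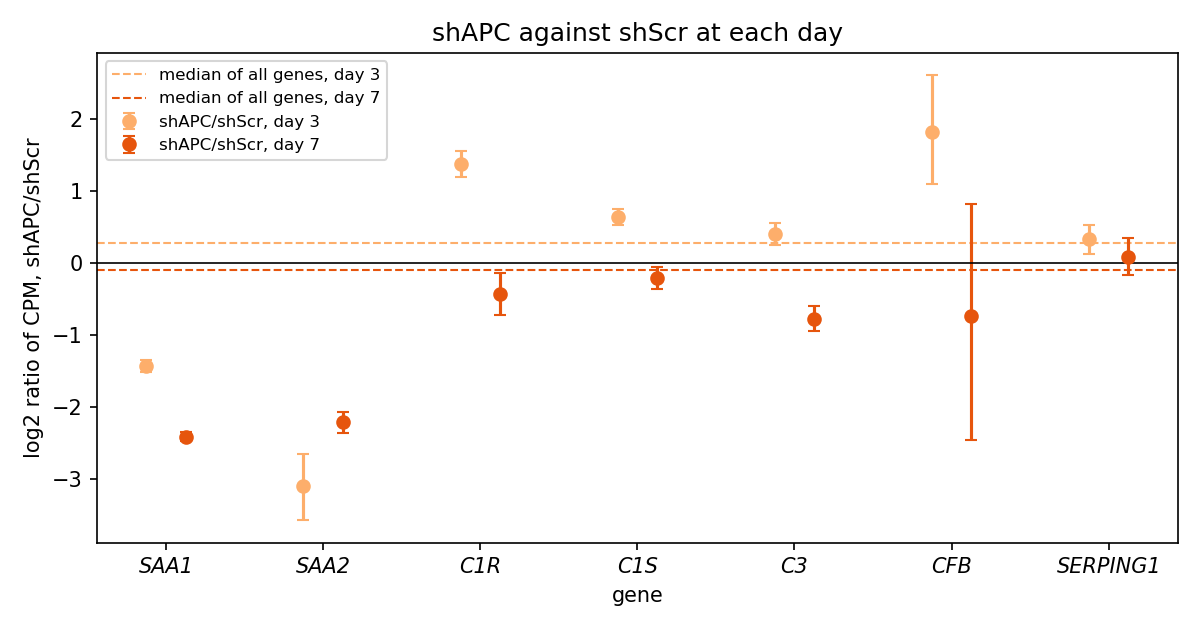
Log2 ratio of CPM, shAPC over shScr, for the 7 genes at day 3 and day 7, with exact conditional binomial 95% intervals and dashed lines at the median of all genes. SAA1 and SAA2 lie below 0 at both days, between -3.09 and -1.43, while C1R, C1S and C3 lie above 0 at day 3 and below it at day 7.

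Between the days, within shScr, SAA1 and SAA2 were higher at day 7 by log2 ratios of 1.89 (1.84 to 1.94) and 2.74 (2.60 to 2.90), and these were the top 2 of the 4556 genes tested. An interval above 0 was found for 25% of genes in this contrast and one below 0 for 18.3%. C3 was also higher at day 7 in shScr, by 0.62 (0.46 to 0.77), C1S was lower at -0.18 (-0.31 to -0.05), and the intervals of C1R, CFB and SERPING1 held 0. Within shAPC the SAA genes were again higher at day 7, SAA1 by 0.91 (0.82 to 1.00) and SAA2 by 3.62 (3.18 to 4.10). Without the 10 cells richest in each gene per library these became 0.46 (0.33 to 0.58) and 2.01 (1.29 to 2.79). In contrast, all 5 complement genes were lower, from -0.45 for SERPING1 through -1.02 for C1S and -1.99 for C1R to -3.14 for CFB. In shAPC 49.1% of genes had an interval below 0 between the days and 9.05% one above it. These contrasts use the same 4 libraries as the shAPC/shScr ratios and add no independent measurement.

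Across single cells SAA1 was uneven. Without thinning, 44.2% of cells had an SAA1 UMI in shScr day 3, 32.6% in shAPC day 3, 77.6% in shScr day 7 and 24.6% in shAPC day 7. Since depth differs between libraries, each cell was thinned to 2000 UMIs, which left out 217, 115, 1402 and 391 shallower cells in that order, and the shares became 12.5% (10.4 to 14.8, exact binomial 95% interval), 6.84% (5.05 to 9.01), 36.7% (34.0 to 39.5) and 7.73% (6.21 to 9.48). The shAPC share was the lower at both days, by 5.62 percentage points at day 3 and by 29.0 at day 7. No cell type that should lack SAA1 is present in this line, so a background share from free RNA could not be set beside these.

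Deep cells, of at least 30000 UMIs and thinned to that number, allow shares of cells to be set side by side at 1 depth. SAA1 was found in 52.6% of 607 cells of shScr day 3, 31.0% of 539 cells of shAPC day 3, 90.4% of 428 cells of shScr day 7 and 33.3% of 384 cells of shAPC day 7, with medians of 1, 0, 3 and 0 UMIs. In the control at day 7 nearly all deep cells thus held SAA1. C1R was found in 20.4%, 41.7%, 16.4% and 12.2% of these cells in the same order, and C1S in 48.4%, 65.7%, 40.4% and 41.1%. C3 was found in 28.3%, 32.1%, 40.2% and 28.9%, SERPING1 in 21.3%, 23.2%, 19.4% and 16.4%, and SAA2 in 12.0%, 3.34%, 40.2% and 7.81%. CFB was found in 0.781% to 3.90% of deep cells. C1R was thus also higher in shAPC day 3 as a share of cells, while C1S at day 7 had nearly equal shares. The mean of C1R was 0.242 UMIs per deep cell in shScr day 3 and 0.651 in shAPC day 3. At such means a share cannot tell more cells with the RNA from more RNA per cell.

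Cells with high SAA1 were few in most libraries. At 5000 UMIs per cell 80.5% of cells of shScr day 3, 88.5% of shAPC day 3, 49.4% of shScr day 7 and 85.6% of shAPC day 7 had no SAA1 UMI. Cells with 10 or more SAA1 UMIs made up 0.989%, 0.162%, 5.02% and 0.805% of cells in the same order. The ratio of variance to mean, which is 1 for pure counting, was 6.87, 3.40, 13.6 and 17.4. A single shAPC day 7 cell held 609 unthinned UMIs, 25.4% of the library's SAA1, and 10 cells held 50.7% of it. Without the 10 cells richest in SAA1 in each library the log2 ratio was -1.40 at day 3 and -3.12 at day 7, so the day 7 difference was larger without them.

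**Figure D3:**
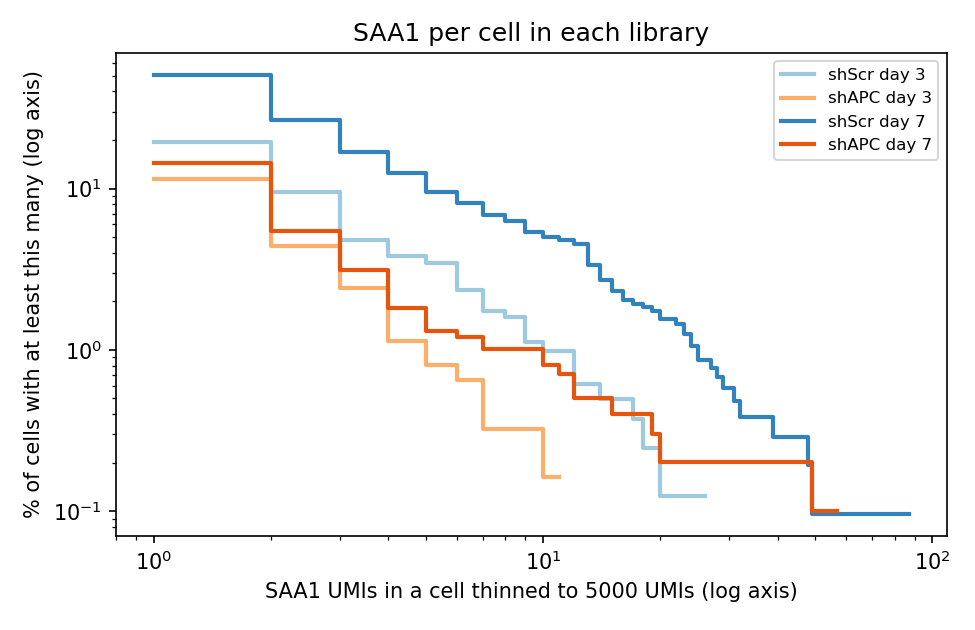
Percent of cells (log axis) that hold at least a given number of SAA1 UMIs (log axis), each cell thinned to 5000 UMIs, for the 4 libraries. The shScr day 7 curve lies above the others up to 40 UMIs, with 5.02% of cells at 10 UMIs or more, and the shAPC day 7 curve ends in a few cells of up to 57 UMIs.

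The depth of the cells bore on the day 3 difference of SAA1. In cells of at least 30000 UMIs, which held 96.3% of the kept UMIs of shAPC day 3 and 90.1% of those of shScr day 3, SAA1 stood at 41.6 CPM against 125.2 CPM, a log2 ratio of -1.59. In shallower cells the direction was not the same. The log2 ratio was 0.04 (-0.77 to 0.82) in cells of 500 to under 2000 UMIs, -0.21 (-0.73 to 0.30) at 2000 to under 10000 UMIs and 0.99 (0.61 to 1.37) at 10000 to under 30000 UMIs, where shAPC day 3 had only 37 cells and 36 of its 85 SAA1 UMIs came from 1 of them. Over all cells under 30000 UMIs the day 3 ratio was 0.68. This pool mixes the classes in unlike parts, as cells of 10000 to under 30000 UMIs held 2.02% of the kept UMIs of shAPC and 7.80% of those of shScr. At 2000 to under 10000 UMIs, 30 of the 54 SAA1 UMIs of shAPC day 3 also came from 1 cell. At day 7 all 4 depth classes lay below 0, with log2 ratios of -3.11, -2.71, -1.80 and -2.38 from the shallowest to the deepest. In shScr day 7 the 1402 cells under 2000 UMIs had 1919 CPM of SAA1, above the 255 to 819 CPM of its deeper cells, and 972 of them had an SAA1 UMI. The part of cell quality or free RNA in this was not tested.

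**Figure D4:**
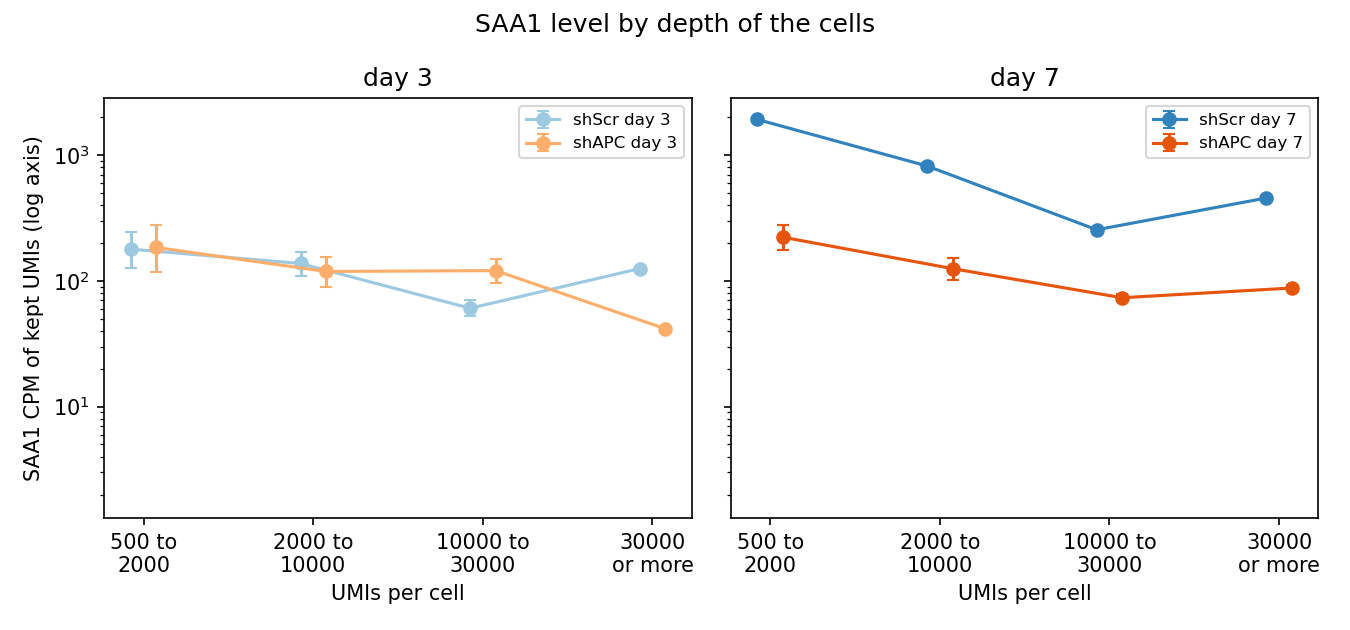
SAA1 level (CPM, log axis) in 4 classes of cells by UMIs per cell, day 3 on the left and day 7 on the right, with exact Poisson 95% intervals. At day 7 shScr lies above shAPC in every class, and at day 3 only in the class of 30000 UMIs or more (125.2 against 41.6 CPM) does shScr lie clearly above shAPC.

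At day 3 most UMIs of the complement genes came from cells of at least 30000 UMIs. At day 7 this was not so for every gene. In shAPC day 7 such cells held 76 of 162 C1R UMIs, 292 of 615 C1S UMIs and 115 of 246 SERPING1 UMIs. In shScr day 7 they held 119 of 239 C1R UMIs. At 30000 UMIs or more the day 3 log2 ratio was 1.39 (1.20 to 1.58) for C1R, 0.64 (0.53 to 0.76) for C1S and 0.43 (0.27 to 0.59) for C3. In the shallower classes of day 3 every interval of these 3 genes held 0. SERPING1 at 10000 to under 30000 UMIs was at 1.43 (0.20 to 2.59) at day 3, on 11 UMIs against 18. In that class it was at 0.46 (0.03 to 0.89) at day 7. In the deepest cells SERPING1 was at 0.29 (0.08 to 0.50) at day 3, and its day 7 interval held 0. At day 7 C3 was at -0.84 (-1.08 to -0.61) in the deepest cells and -0.48 (-0.79 to -0.17) at 10000 to under 30000 UMIs. The C3 intervals of the shallower classes held 0. The day 7 interval of C1R held 0 in every class, with -0.42 (-0.85 to 0.01) in the deepest cells. C1S at day 7 was at -0.26 (-0.48 to -0.04) in the deepest cells and -1.09 (-2.20 to -0.10) at 2000 to under 10000 UMIs. At 10000 to under 30000 UMIs C1S was at 0.20 (-0.05 to 0.46), and its shallowest class held 0 too. The barcodes that failed only the mitochondrial limit, 346, 245, 1052 and 1551 in library order, held more SAA1 in shScr, 277.4 CPM at day 3 and 978.9 CPM at day 7, against 67.0 and 59.0 CPM in shAPC. In those barcodes the day 3 ratio of C3 was turned, at -0.81, and that of C1R was 0.43.

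C3 was higher in the cells with the most SAA1. The top 10% of cells by SAA1 at 5000 UMIs per cell reached down to 4 SAA1 UMIs in shScr day 7 and to 1 UMI in the other libraries, where tied cells were split. These cells had more C3 than the rest, by log2 ratios of 2.48 (1.71 to 3.22) in shScr day 3, 1.37 (0.35 to 2.28) in shAPC day 3, 1.65 (0.98 to 2.27) in shScr day 7 and 1.84 (0.99 to 2.63) in shAPC day 7. C3 was thus the complement gene whose interval lay above 0 in all 4 libraries. C1S was above 0 in both shScr libraries, at 0.99 (0.19 to 1.72) and 1.65 (0.97 to 2.29), and its interval held 0 in both shAPC libraries. For C1R the interval lay above 0 in shAPC day 7 alone, at 1.66 (0.18 to 2.96), on 7 UMIs against 20, and for SERPING1 it held 0 in every library. SAA2 was also higher in the cells with the most SAA1, with ratios of 4.27, 3.75 and 5.98 in shScr day 3, shScr day 7 and shAPC day 7. In shAPC day 3 it had 5 UMIs in the top 10% of cells and 0 in the rest. The division of reads between SAA1 and SAA2 is uncertain, so SAA2 is not a separate case here either. Pearson's r of SAA1 with C3 over cells was 0.26, 0.12, 0.17 and 0.19 in library order, and with SAA2 0.41, 0.36, 0.56 and 0.50, over 616 to 1036 cells that share 1 library each.

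Ranked by the summed UMIs of 12 interferon-stimulated genes, the cells gave other values. For SERPING1 the top 10% of cells stood against the rest at 1.22 (-0.22 to 2.46), 2.10 (0.91 to 3.19), 1.76 (0.76 to 2.68) and 1.10 (-0.14 to 2.17) in library order, with intervals above 0 in shAPC day 3 and shScr day 7 and intervals that hold 0 in the others. C1R was at 1.41 (0.06 to 2.59), 0.89 (-0.20 to 1.84), 1.77 (0.62 to 2.81) and 0.18 (-2.20 to 1.90). For C3 all 4 intervals held 0, from -0.49 to 0.47. SAA1 itself was lower in the interferon-high cells of shScr day 3, at -1.56 (-2.38 to -0.84), and higher in those of shScr day 7, at 0.82 (0.64 to 0.99), and of shAPC day 7, at 0.55 (0.12 to 0.95), while shAPC day 3 was at 0.14 (-0.75 to 0.91). For C1S the interval lay above 0 in shAPC day 3 alone, at 0.98 (0.26 to 1.64). The SERPING1, C1R and C3 values rest on 3 to 15 UMIs in each top 10%, and the difference between the rankings was not tested.

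**Figure D5:**
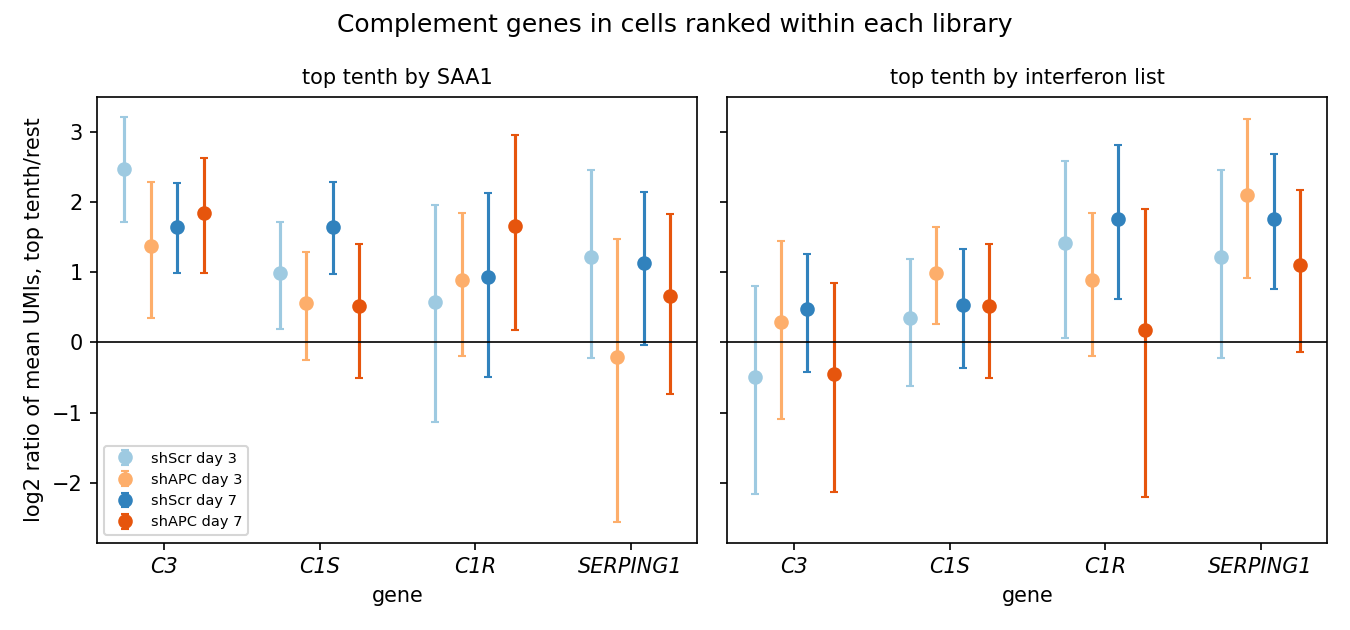
Log2 ratio of mean UMIs in the top 10% of cells over the rest, with exact 95% intervals, for C3, C1S, C1R and SERPING1 in the 4 libraries, each cell thinned to 5000 UMIs. On the left, ranked by SAA1, C3 lies between 1.37 and 2.48 with every interval above 0. On the right, ranked by 12 interferon-stimulated genes, SERPING1 lies between 1.10 and 2.10 and the C3 intervals hold 0.

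Most other complement genes had few or no UMIs. Of 47 further complement genes 17 had 0 UMIs in all 4 libraries, 38 were below 1 CPM in each, and 4 reached 20 CPM. These 4 were CD46, CD55 and CD59, surface proteins that protect a cell from complement, and C1QBP, a mostly mitochondrial protein that can bind C1q. CD59 was at 411.0 CPM in shScr day 3, 417.7 CPM in shAPC day 3, 466.1 CPM in shScr day 7 and 283.0 CPM in shAPC day 7. This made its log2 difference 0.02 (-0.0089 to 0.056) at the earlier day and -0.72 (-0.76 to -0.68) at the later one. CD55 was at 0.63 and -0.28, CD46 at -0.23 and -0.23, and C1QBP at 0.18 and -0.26. None of the 4 was past 2-fold at either day, and their median was 0.10 at day 3 and -0.26 at day 7. Their day 3 median turned to -0.28 with TMM factors, so no direction is given for it.

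Of 23 other acute-phase genes 21 were below 1 CPM in every library. The exceptions were PTX3, a pentraxin made at sites of inflammation rather than in the liver, and TFRC, the transferrin receptor. PTX3 was at 337.3 CPM in shScr day 3, 316.1 CPM in shAPC day 3, 354.6 CPM in shScr day 7 and 140.2 CPM in shAPC day 7. On the log2 scale it differed by -0.09 (-0.13 to -0.06) at the earlier day and by -1.34 (-1.39 to -1.29) at the later one, so PTX3 was past 2-fold lower at day 7 as SAA1 was, but not at day 3. TFRC was at 0.17 and 0.29.

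Among 27 inducers of SAA and complement genes (cytokines, receptors and transcription factors), 17 reached 20 CPM in the day 3 pair and 15 of them had a ratio above 0, with a median of 0.61 against 0.28 for all genes, of which 79.2% were above 0. Past 2-fold higher on the log2(CPM + 1) scale were 3 of these 17, where 3.86% of tested genes were. They were IRF1, an interferon-induced factor, at 2.52 (2.36 to 2.68), and the NF-kB subunits NFKB2 at 1.72 (1.55 to 1.90) and RELB at 1.24 (1.11 to 1.37). LIF, a cytokine of the interleukin-6 family, was at 1.02 (0.87 to 1.17) without the pseudocount and under 2-fold with it. The cytokine genes IL1A, IL6 and TNF, under 20 CPM in every library, were at 5.03, 1.84 and 1.55 at day 3. At day 7 they were at -2.50, -0.67 and -4.26, with 5 IL1A UMIs and 1 TNF UMI in shAPC. For IL1B the interval held 0 at both days, at 0.29 and -0.69. IRF1 was at 9.85 CPM in shScr day 3, 56.4 CPM in shAPC day 3, 16.0 CPM in shScr day 7 and 9.81 CPM in shAPC day 7, the same library standing apart as for C1R. At day 7, 8 of 10 tested inducers had a ratio below 0, where 62.3% of all tested genes did, and their median was -0.26 against -0.10. Of these, the NF-kB inhibitor gene NFKBIA was the lowest at -0.81 (-0.90 to -0.72). CEBPD, a C/EBP factor of the acute-phase response, was higher in shAPC at both days, at 0.65 (0.58 to 0.73) and 0.44 (0.35 to 0.53), a direction opposite to that of SAA1. Other factors of these families differed from it at day 7. CEBPB was at 0.55 and -0.20 and NFKB1 at 0.70 and -0.47. STAT3 was at 0.29 and -0.02 and RELA at 0.49 and 0.07, with day 7 intervals that held 0. TLR4, the only gene among 9 SAA receptors and partners to reach 20 CPM, was at -0.76 (-0.95 to -0.57) at day 3 and -1.18 (-1.38 to -0.99) at day 7.

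The interferon-stimulated genes were, like C1R, highest in shAPC day 3. Their summed level over 12 genes was 1264 CPM in shScr day 3, 4965 CPM in shAPC day 3, 1381 CPM in shScr day 7 and 697.2 CPM in shAPC day 7. All 11 that reached 20 CPM at day 3 were past 2-fold higher in shAPC, with a median of 2.25, led by IFI6 at 3.28 (3.23 to 3.33), and 3 of the 6 tested at day 7 were past 2-fold lower, IFI6 at -1.72 (-1.83 to -1.61), IFI27 at -1.59 (-1.65 to -1.53) and ISG15 at -1.13 (-1.18 to -1.07), where 1.77% of all tested genes were. Their part in the levels of the complement genes was not tested.

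By level over the 4 libraries, the 5 genes most like SAA1 among 5295 genes, by the distance between centred log2(CPM + 1) values, were THBS1 (distance 0.841), CRYAB (0.949), PLCE1-AS1 (1.13), SOD3 (1.32) and PALLD (1.38). THBS1, which encodes the matrix protein thrombospondin-1, was at 34.8 CPM in shScr day 3, 9.41 CPM in shAPC day 3, 68.0 CPM in shScr day 7 and 27.0 CPM in shAPC day 7. The genes nearest to C3 were GGH (0.0370), LIMA1 (0.0896), IGFBP7 (0.101), SBDS (0.113) and VPS29 (0.121). Over single cells the ranking of 3820 genes was different. The genes whose lowest correlation with SAA1 in the 4 libraries was highest were SOD2 (0.23), CXCL1 (0.23), SQSTM1 (0.19), TIMP1 (0.18) and CYBA (0.17). SOD2, mitochondrial superoxide dismutase, and CXCL1, a neutrophil chemokine, are both known NF-kB targets. These points are 4 libraries, or cells of 1 library, and likeness is given as a description.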

How the data were processed

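The authors aligned the reads to hg38 and counted them with Cell Ranger, and the deposited matrices hold raw UMI counts per gene and barcode. The submitters' processing notes name Cell Ranger 3.0.2, STAR and GRCh38. The annotation release is not given in the sources used here. ComBat and imputation, later steps of the study, were not applied.

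Kept barcodes had 200 genes or more, 500 UMIs or more and less than 5% mitochondrial UMIs, and the limits removed 24.1% to 51.3% of barcodes. Doublets were not removed, and leaving out the deepest 5% of cells was an alternative. No test was run, as each group is 1 library, and a fit that takes the 2 days as replicates of the shRNA effect was not made. Intervals are exact Poisson for levels and Clopper-Pearson for ratios and shares, at 95%. Comparisons over all genes used a pseudocount of 1 CPM and a minimum of 20 CPM in either library, and 1 UMI was worth 0.0251 to 0.0351 CPM. The 3′ assay counts a molecule once, so genes were set side by side without length correction.

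The 7 genes and all lists were chosen with earlier results of these data known. Named are all 7, some of the list genes that reach 20 CPM in a library and some of the markers. Also named are the 5 genes most like SAA1 or C3 over libraries and most like SAA1 over cells. SAA4, IL1A, IL1B, IL6 and TNF were named after their values were seen. Scaling factors came from edgeR 4.0.16 (TMM) and DESeq2 1.42.0. The rest used Python 3.11.15 with numpy 2.4.6, scipy 1.17.1, pandas 2.3.3 and Biopython 1.88. The ratio and interval steps were tested on simulated Poisson counts. Those counts lack the unevenness of SAA1 over cells seen here, so the intervals were not tested in that setting.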

Additional observations from a re-analysis of the deposited data

Results flagged for a closer look

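For 3 complement genes the shAPC/shScr difference had opposite directions at the 2 days, each with a counting interval that did not hold 0. The log2 ratio of C1R was 1.37 at day 3 and -0.43 at day 7, that of C1S was 0.63 and -0.21, and that of C3 was 0.40 and -0.77. With 1 library per group the difference between the days was not tested. Relative to the median of all genes, which was 0.28 at day 3, the C3 value at day 3 shrank to 0.11 on the log2(CPM + 1) scale, while that of C1R was 1.00 and that of C1S 0.34. The day 7 value of C1R was -0.10 with a 10% mitochondrial limit, and that of C1S turned to 0.12. In every depth class the day 7 interval of C1R held 0.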

How the results depend on the processing

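No paired analysis was possible because the groups share fewer than 2 replicate numbers, and no replicate could be left out of a group of 1. A fit with the days as blocks was not run. Cell sets with or under 30000 UMIs, without shared barcodes, of barcodes removed by the mitochondrial limit, or without the 10 cells richest in SAA1 or SAA2 were added after seeing the data. For the values below the cause was not tested. SAA1 at day 3 (-1.43) became -1.81 with TMM factors, -1.79 with DESeq2 size factors, -1.54 without mitochondrial and ribosomal protein genes in the total, -1.52 with all barcodes, -0.62 as a mean over cells, -1.52 with SAA2 added, -2.05 in the barcodes removed by the mitochondrial limit, -1.59 in cells of 30000 UMIs or more and 0.68 in shallower ones. SAA1 at day 7 (-2.41) became -3.06 with all barcodes, -2.98 with a 10% mitochondrial limit, -2.23 in cells of at least 2000 genes, -2.67 without the deepest 5% of cells, -3.41 as a mean over cells, -3.12 without its 10 richest cells and -4.05 in the removed barcodes. The share difference of SAA1 became -11.6 points at day 3 without thinning, and at day 7 -36.2 at 5000 UMIs, -52.9 without thinning, -35.2 with all barcodes and -33.2 with the 10% limit. Of the complement genes, SERPING1 at day 3 turned to -0.053 with TMM, -0.036 with DESeq2 and -0.14 in the removed barcodes, C3 at day 3 to -0.81 in the removed barcodes and -0.92 under 30000 UMIs, C1S at day 3 to -0.32 under 30000 UMIs, and C1S at day 7 to 0.081 with all barcodes and 0.12 with the 10% limit. The median of the 5 at day 3 (0.62) became 0.25 with TMM, 0.26 with DESeq2, 0.32 with a pseudocount of 5 CPM, 0.0089 in the removed barcodes and 0.24 under 30000 UMIs, and at day 7 (-0.20) -0.72 as a mean over cells. Genes lower at day 3 and at both days fell from 2 to 0 under 30000 UMIs and were 3 in the removed barcodes. Those lower at day 7 fell from 5 to 3 with the 10% limit. They fell to 4 without mitochondrial and ribosomal protein genes in the total, with all barcodes, in cells of at least 2000 genes and without the deepest 5%. The day 7 count was also 4 in the removed barcodes, in cells of 30000 UMIs or more and in shallower ones. It stayed at 5 with TMM factors, with DESeq2 size factors and without shared barcodes. The mean over cells gave no interval and so no such count.

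Among all genes, those 2-fold lower at day 3 (22) numbered 67 with TMM, 60 with DESeq2, 36 without mitochondrial and ribosomal protein genes, 37 with no minimum, 5 at 100 CPM, 53 in the removed barcodes and 191 under 30000 UMIs. At day 7 (81) they numbered 191 as a mean over cells, 135 with no minimum, 27 at 100 CPM, 143 in the removed barcodes and 122 under 30000 UMIs. The complement list at day 3 (0.10) became -0.28 with TMM, -0.26 with DESeq2, -0.014 without mitochondrial and ribosomal protein genes, 0.24 at 10 CPM, -0.13 in the removed barcodes and -0.17 under 30000 UMIs, and at day 7 (-0.26) -0.45 as a mean over cells, 0.050 with no minimum, -0.49 at 100 CPM, -0.17 in the removed barcodes and -0.37 at 30000 UMIs or more. The acute-phase list at day 3 (0.04) became -0.34 with TMM, -0.32 with DESeq2, -0.076 without mitochondrial and ribosomal protein genes, 0.10 without the deepest 5%, -0.095 as a mean over cells, -0.093 at 100 CPM, -0.16 in the removed barcodes and -0.82 under 30000 UMIs, and at day 7 (-0.52) -0.045 with no minimum, -1.33 at 100 CPM and -0.63 in the removed barcodes.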
